A study of Homo sapiens with 12 samples.

Results

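The genes of glucose uptake, glycolysis, lactate handling, pyruvate entry into mitochondria and the pentose phosphate pathway were examined in the human colon cancer cell line SW480 after the level of GPD1L had been changed. The set comprised 38 genes, taken by symbol, and all 38 were among the 13554 genes listed for the knockdown and the 13583 genes listed for the overexpression. Libraries were made from poly(A) RNA of stably transfected cells in 4 groups of 3. The shGPD1L line carried a short hairpin RNA against GPD1L and was compared with the shNC line, which carried a control hairpin. The OE line overexpressed GPD1L and was compared with the Vector line, which carried the vector for overexpression. Each change thus rested on a single altered line and a single control line, so effects of GPD1L, of the constructs and of differences between lines cannot be told apart. Nothing in the labels says that libraries of 1 group are separate cultures, and p-values therefore describe the spread between these libraries, which may be technical. In bulk RNA, a change in the number of cells of a kind cannot be told apart from a change in RNA per cell.

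Glycolysis splits glucose into triose phosphates and carries them to pyruvate, which is reduced to lactate or oxidised by the mitochondrial pyruvate dehydrogenase complex. One of these trioses, dihydroxyacetone phosphate, is the substrate that the GPD1 family, to which GPD1L belongs, interconverts with glycerol-3-phosphate. The pentose phosphate pathway branches off at glucose-6-phosphate, supplies NADPH and ribose-5-phosphate, and returns carbon to glycolysis through transketolase and transaldolase. Colon carcinoma lines such as SW480 commonly express the glycolytic pathway strongly.

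Values are FPKM, fragment numbers scaled to transcript length and library size, as the authors deposited them. Totals over the listed genes ranged from 421714 to 444794 FPKM per library, and the read depth behind them is unknown. GPD1L itself ranged from 8.01 to 9.10 FPKM (shNC) and from 1.26 to 2.23 FPKM (shGPD1L), and was at 10.2 to 11.1 FPKM in Vector and 22.1 to 22.8 FPKM in OE. Epithelial markers were listed for 8 of 9 genes in the knockdown table, all but KRT20, and for 9 of 9 in the overexpression table, and summed to between 3800 and 5439 FPKM per library. None of the 4 endothelial markers was listed, and 2 of 7 fibroblast markers summed to 1.15 to 2.31 FPKM. The leukocyte markers CD68 and CD14 were listed, at 17.3 to 32.0 FPKM in sum, and PTPRC, CD3E and LYZ were not. The library shGPD1L replicate 3 differed from the other knockdown libraries, and knockdown fits without it are given below for the genes described. It also had the most GPD1L of its group, 2.23 FPKM against 1.55 and 1.26 FPKM in replicates 1 and 2. Fits without it thus leave out the library with the weakest knockdown.

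Within the control lines the most abundant transcripts per unit length were those of the triose part of the pathway. GAPDH, the dehydrogenase that produces glycolytic NADH, averaged 1950 ± 53.7 (shNC) and 1739 ± 23.9 FPKM (Vector; SD, n = 3 each). The pyruvate kinase gene PKM followed at 1135 ± 55.4 and 846 ± 17.9 FPKM, and the enolase gene ENO1 at 1025 ± 51.7 and 838 ± 19.2 FPKM. In shNC, SLC2A1 (592 ± 22.1 FPKM), LDHB (544 ± 34.8 FPKM) and ALDOA (534 ± 26.1 FPKM) came next, and LDHB and ALDOA lay within each other's spread. At the other end stood the pyruvate dehydrogenase kinase genes PDK3 (3.16 ± 0.60 FPKM) and PDK1 (2.34 ± 0.13 FPKM). The 38 genes together made up 1.86 ± 0.054% of the listed FPKM in shNC and 1.95 ± 0.070% in shGPD1L, and 1.64 ± 0.029% in Vector and 1.74 ± 0.027% in OE (SD, n = 3 each). Whether the 2 tables share a normalization is not stated, so levels of the 2 control lines are given side by side without a test.

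Raising GPD1L was accompanied by changes in 12 of the 38 genes, 5 higher and 7 lower, all of modest size. The rises were those of both glucose transporter genes SLC2A1 and SLC2A3, the hexokinase gene HK2, the aldolase gene ALDOA and the mitochondrial pyruvate carrier gene MPC1. The falls were those of ALDOC, TPI1, ENO2, LDHB, the lactate transporter gene SLC16A1, the pyruvate dehydrogenase gene PDHB and the transketolase gene TKT. Calls were made with limma at a Benjamini-Hochberg adjusted p under 0.05 over all 12208 genes tested, of which 22.4% were called, 12.2% higher and 10.3% lower; among the 38 the share was 31.6%. When the filter was raised to 5 FPKM, which 8997 genes and 35 of the 38 passed, 27.6% of all genes were called. Groups did not overlap for 20 of the 38 genes, 12 higher and 8 lower, where they did not overlap for 41.8% of all genes tested (24.2% higher and 17.6% lower). The median log2 change of the 38 genes was -0.01, and that of all genes tested was 0.02. The listed FPKM summed to 437051 to 438967 in Vector and 421714 to 423368 in OE, without overlap. With library totals set equal, 11 of the 38 were called higher and 4 lower (73.3% of calls higher, against 41.7% in the deposited values), and with quantile normalization 9 were called higher and 5 lower (64.3%). Over all genes 54.2% of calls were higher in the deposited values, 71.4% with equal totals and 49.6% with quantile normalization. The calls of 6 genes, SLC2A3, HK2, ALDOC, MPC1, PDHB and TKT, held in each of 16 alternative settings.

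**Figure D1:**
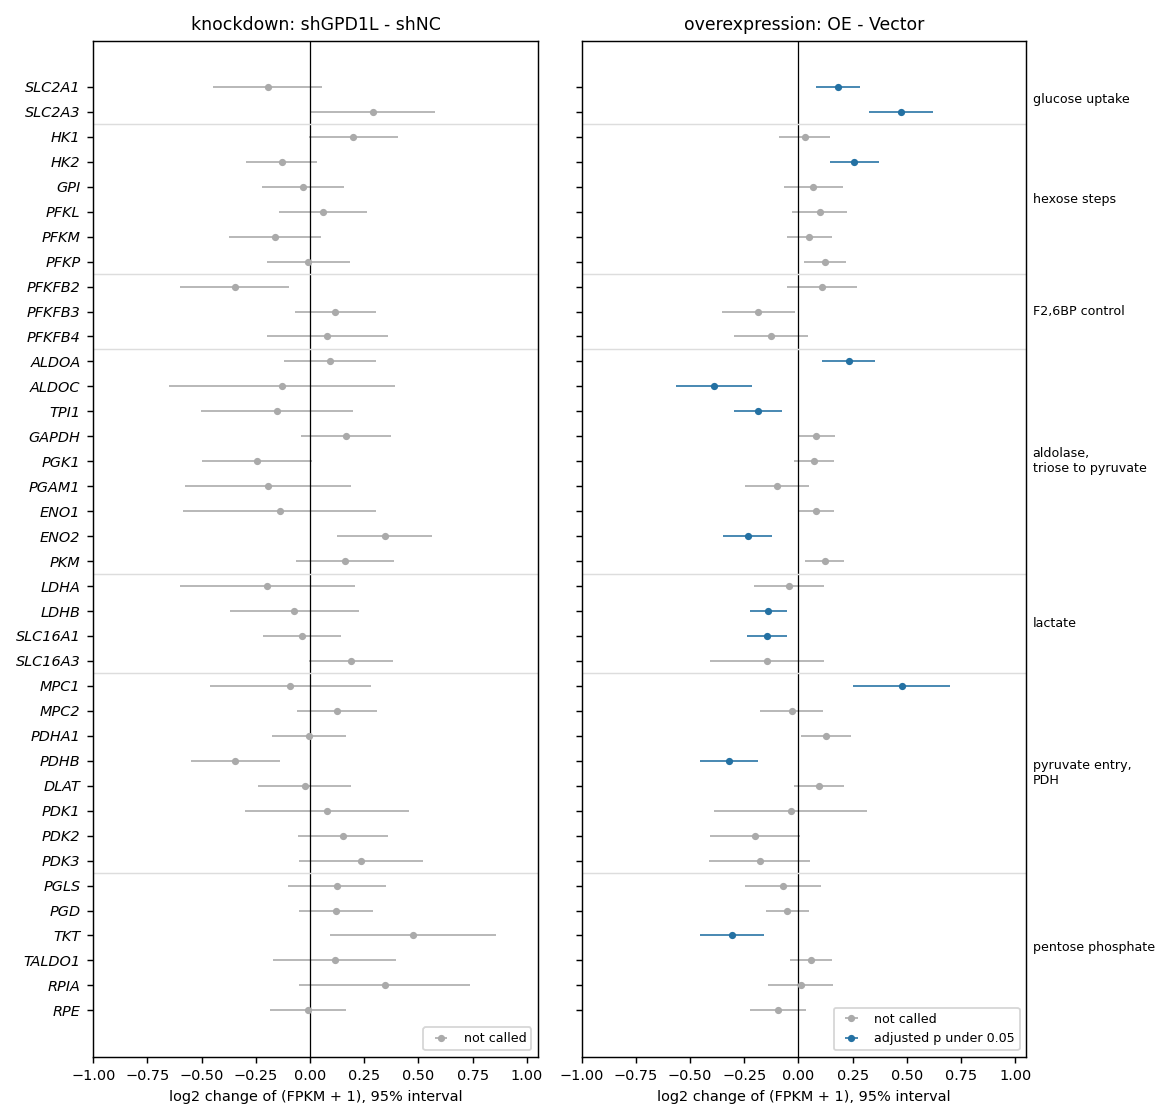
Log2 changes of (FPKM + 1) for the 38 genes in the knockdown (left, shGPD1L minus shNC) and the overexpression (right, OE minus Vector), ordered by role, with points for the estimate and bars for its 95% interval, n = 3 libraries a group. Coloured points passed an adjusted p under 0.05: 12 in the overexpression and 0 in the knockdown, where the intervals are wider.

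Both facilitative glucose transporters of the set rose in OE. SLC2A1 (ENSG00000117394, chromosome 1, 42925375 to 42959176, minus strand, GRCh38), which encodes GLUT1, the main basal glucose transporter of many tumour cells, was at 466, 474 and 431 FPKM in Vector and 509, 523 and 522 FPKM in OE. The 3 OE libraries all lay above the 3 Vector libraries, at a log2 change of 0.18 (SE 0.045, adjusted p = 0.0234 by limma). Its call was lost in 5 of 16 alternatives, among them leaving out Vector replicate 1 or 3 or OE replicate 2 or 3 (adjusted p = 0.0509, 0.0548, 0.0701 and 0.06), within a range of 0.00156 to 0.0701. SLC2A3 (ENSG00000059804, chromosome 12, 7919230 to 7936275, minus strand), which encodes the high-affinity transporter GLUT3, was much less abundant and changed more. It stood at 8.79, 8.36 and 9.24 FPKM in Vector and 13.4, 11.9 and 12.5 FPKM in OE, again without overlap. The log2 change was 0.47 (SE 0.064, adjusted p = 0.0025), and adjusted p-values ran from 0.00164 to 0.0137 over the alternatives.

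Of the 6 genes of the hexose steps, HK2 rose and the other 5 were not called. HK2 (ENSG00000159399, chromosome 2, 74833981 to 74893359, plus strand) encodes the inducible hexokinase that traps glucose as glucose-6-phosphate. Its values were 23.0, 22.7 and 22.2 FPKM in Vector and 26.2, 27.2 and 28.5 FPKM in OE, a log2 change of 0.26 (SE 0.049, adjusted p = 0.009; 0.00401 to 0.032 over the alternatives). All OE libraries exceeded all Vector libraries. The constitutive hexokinase gene HK1 had a log2 change of 0.03, with a 95% interval from -0.09 to 0.14. GPI, which encodes glucose-6-phosphate isomerase, was at 97.8, 85.4 and 85.2 FPKM in Vector and 92.8, 91.5 and 96.8 FPKM in OE, and the groups overlapped (log2 change 0.07, 95% interval -0.07 to 0.21). The phosphofructokinase genes PFKL, PFKM and PFKP, whose products commit hexose to glycolysis, had log2 changes of 0.10, 0.05 and 0.12, with adjusted p-values of 0.236, 0.47 and 0.0713. PFKP was called with equal library totals (adjusted p = 0.0189) and with quantile normalization (0.0455).

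The bifunctional PFKFB enzymes set the level of fructose-2,6-bisphosphate, the activator of phosphofructokinase, and none of their 3 genes was called in the overexpression. PFKFB3, the most abundant, was at 10.0, 9.24 and 9.24 FPKM in Vector and 7.74, 7.91 and 9.10 FPKM in OE, without overlap, at a log2 change of -0.19 (adjusted p = 0.104). PFKFB2 was at 7.56, 6.64 and 7.51 FPKM in Vector and 8.18, 8.03 and 7.44 FPKM in OE, with overlap (log2 change 0.11), and PFKFB4 had a log2 change of -0.13.

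Between aldolase and pyruvate 1 of 9 genes rose and 3 fell, and the 2 aldolase genes moved in opposite directions. ALDOA (ENSG00000149925, chromosome 16, 30064164 to 30070457, plus strand), the aldolase gene of most tissues, was at 398, 430 and 395 FPKM in Vector and 477, 453 and 508 FPKM in OE, with all OE libraries higher (log2 change 0.23, SE 0.054, adjusted p = 0.0187). This call was lost without Vector replicate 1 or 3 or OE replicate 3 (adjusted p = 0.0613, 0.0549 and 0.0503). ALDOA shares 1657 exon bases on the same strand with the listed gene AC093512.2, so reads may be divided between them. ALDOC (ENSG00000109107, chromosome 17, 28573115 to 28577264, minus strand), the aldolase best known from brain, fell from 20.7, 19.9 and 21.2 FPKM to 16.2, 13.7 and 16.8 FPKM, a log2 change of -0.39 (SE 0.076, adjusted p = 0.01; 0.00737 to 0.033 over the alternatives). Every OE library lay below every Vector library.

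TPI1 (ENSG00000111669, chromosome 12, 6867119 to 6870948, plus strand), which interconverts dihydroxyacetone phosphate and glyceraldehyde-3-phosphate, was at 296, 300 and 268 FPKM in Vector and 252, 255 and 250 FPKM in OE (log2 change -0.19, SE 0.048, adjusted p = 0.0277). Its groups did not overlap, yet the call was kept in 8 of 16 alternatives and was lost without Vector replicate 1 or 2 and without OE replicate 1, 2 or 3, with adjusted p-values up to 0.191. ENO2 (ENSG00000111674, chromosome 12, 6913745 to 6923698, plus strand), the neuron-specific enolase gene that many tumour lines also express, was at 33.1, 35.1 and 34.6 FPKM in Vector and 30.1, 27.8 and 29.1 FPKM in OE, all OE libraries being lower (log2 change -0.23, SE 0.049, adjusted p = 0.0132). Its adjusted p was 0.0503 without Vector replicate 2. The most abundant genes of this stretch were not called in the deposited values. GAPDH was at 1711, 1756 and 1748 FPKM in Vector and 1812, 1825 and 1888 FPKM in OE, without overlap, at a log2 change of 0.08 (adjusted p = 0.133). For ENO1 and PKM the log2 changes were 0.08 and 0.12 (adjusted p = 0.131 and 0.0582). GAPDH, ENO1 and PKM were each called higher with equal library totals and with quantile normalization, with adjusted p-values from 0.000506 to 0.0267. PGK1 and PGAM1, the kinase and mutase between them, had log2 changes of 0.07 and -0.10. The PGK1 groups did not overlap, and the gene was called higher with equal library totals (adjusted p = 0.0486).

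Among the lactate genes 2 of 4 fell slightly. LDHB (ENSG00000111716, chromosome 12, 21635342 to 21757857, minus strand), the lactate dehydrogenase subunit gene typical of oxidative tissue, was at 520, 539 and 546 FPKM in Vector and 488, 492 and 476 FPKM in OE (log2 change -0.14, SE 0.037, adjusted p = 0.0305). SLC16A1 (ENSG00000155380, chromosome 1, 112911847 to 112957013, minus strand), which encodes the lactate and pyruvate transporter MCT1, was at 103, 103 and 101 FPKM in Vector and 95.8, 89.8 and 91.8 FPKM in OE (log2 change -0.15, SE 0.041, adjusted p = 0.0367). Neither gene's groups overlapped, but the calls were kept in 6 and 8 of 16 alternatives, with adjusted p-values up to 0.58 for LDHB and 0.115 for SLC16A1. Both were lost when Vector replicate 1, 2 or 3 or OE replicate 2 or 3 was left out, and LDHB was also lost without OE replicate 1. LDHA, the subunit gene typical of glycolytic tissue, overlapped between groups at a log2 change of -0.04 (95% interval -0.20 to 0.12). The exporter gene SLC16A3, which encodes MCT4, spread widely in Vector, at 109, 95.1 and 76.9 FPKM, and had a log2 change of -0.14 (95% interval -0.41 to 0.12).

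At the entry of pyruvate into mitochondria 1 gene rose and 1 fell. MPC1 (ENSG00000060762, chromosome 6, 166364919 to 166383013, minus strand), a subunit of the inner-membrane pyruvate carrier, was at 11.1, 10.2 and 9.48 FPKM in Vector and 16.4, 12.5 and 15.2 FPKM in OE. All OE libraries were above all Vector libraries, at a log2 change of 0.48 (SE 0.098, adjusted p = 0.012; 0.00679 to 0.0401 over the alternatives). Its partner MPC2 had a log2 change of -0.03 (95% interval -0.18 to 0.11). PDHB (ENSG00000168291, chromosome 3, 58427630 to 58433857, minus strand), the beta subunit of the dehydrogenase component, was at 39.2, 40.4 and 38.2 FPKM in Vector and 32.0, 28.9 and 33.0 FPKM in OE, with every OE library lower (log2 change -0.32, SE 0.058, adjusted p = 0.00768; 0.0044 to 0.0326 over the alternatives). The alpha subunit gene PDHA1 and the acetyltransferase gene DLAT had log2 changes of 0.13 and 0.10 (adjusted p = 0.108 and 0.207). For both, all OE libraries lay above all Vector libraries, and PDHA1 was called higher with equal library totals (adjusted p = 0.0356). The inhibitory kinase genes PDK1, PDK2 and PDK3 had log2 changes of -0.04, -0.20 and -0.18 and were not called.

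Of the 6 pentose phosphate genes TKT fell and the others were not called. TKT (ENSG00000163931, chromosome 3, 53224707 to 53256052, minus strand), the transketolase that links the pathway back to glycolysis, was at 356, 410 and 397 FPKM in Vector and 291, 322 and 326 FPKM in OE (log2 change -0.31, SE 0.064, adjusted p = 0.0127; 0.00952 to 0.0482 over the alternatives). Its 3 OE values were all below its 3 Vector values. PGLS, PGD, TALDO1, RPIA and RPE, which encode the lactonase, the second NADPH-producing dehydrogenase, transaldolase and the pentose isomerase and epimerase, had log2 changes between -0.10 and 0.06.

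**Figure D2:**
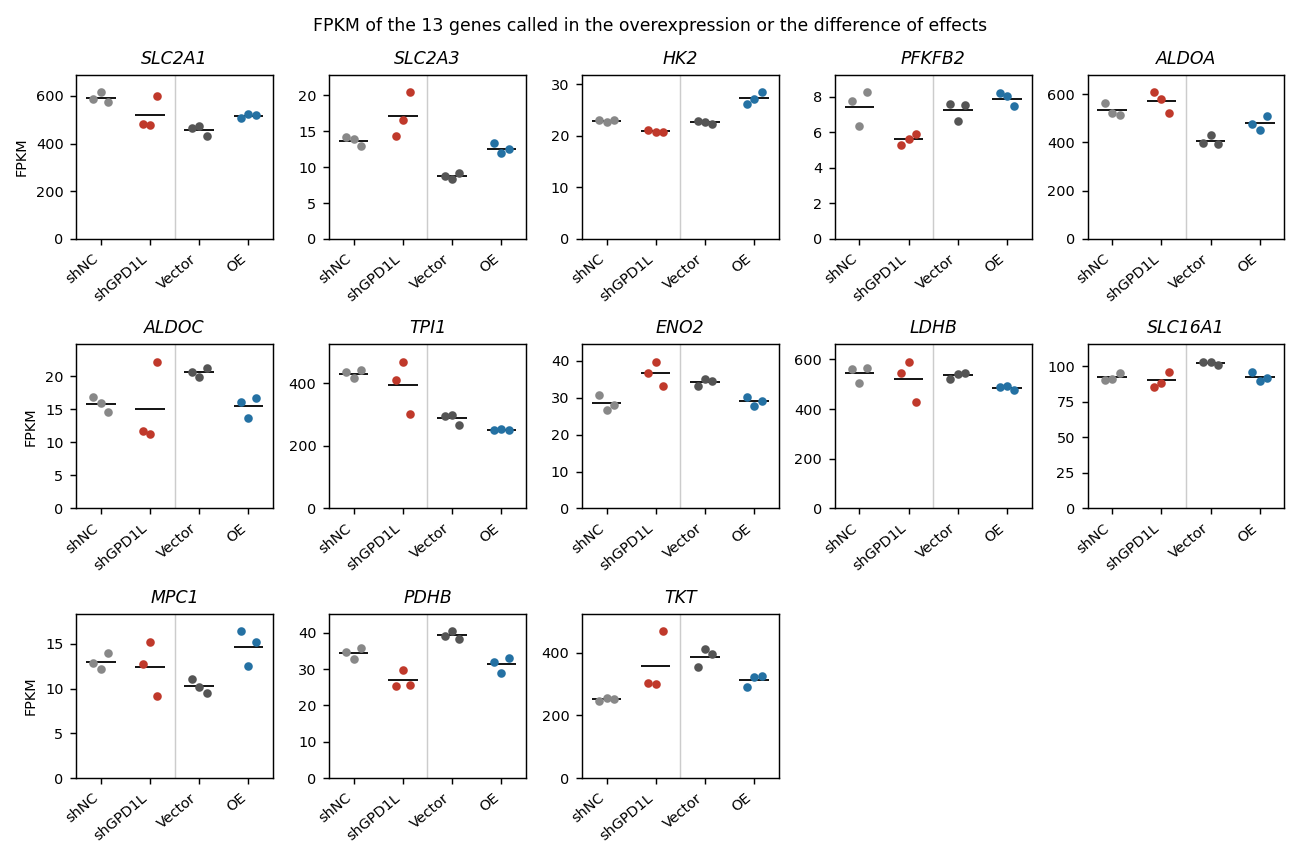
FPKM in each library (points) and group mean (line) for the 13 genes called in the overexpression or in the difference of the effects; the grey line divides the 2 separately deposited tables. In OE all 3 points of HK2 and SLC2A3 lie above Vector and those of PDHB and TKT lie below it, and shGPD1L replicate 3 stands away from replicates 1 and 2 for TKT, ALDOC and SLC2A1.

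Lowering GPD1L was accompanied by no called change among the 38 genes, where 0.592% of the 12156 genes tested were called by limma. At an unadjusted limma p under 0.05 there were 5 of the 38: SLC2A3, PFKFB2, ENO2, PDHB and TKT. At the same threshold there were 12 of the 73 other genes of glucose metabolism described below, GPD1L itself among them. The share over all genes at this threshold is not given here, so the 5 are not set apart from other genes. The count of called genes among the 38 was 0 in 15 of 16 alternatives, and 4 without shGPD1L replicate 3. Intervals were broad: the median 95% half-width was 0.22 on the log2 scale, and the bounds reached -0.65 for ALDOC and 0.86 for TKT, so changes of the size seen in OE were not detectable for many of these genes. The groups did not overlap for 12 of the 38 genes, 9 higher and 3 lower, where they did not overlap for 24.7% of all genes tested (9.54% higher and 15.1% lower). The 9 were SLC2A3, HK1, GAPDH, ENO2, SLC16A3, PDK2, PDK3, PGD and TKT, and the 3 were HK2, PFKFB2 and PDHB.

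The shNC libraries had ENO2 at 30.9, 26.8 and 28.1 FPKM and the shGPD1L libraries at 36.8, 39.8 and 33.2 FPKM, with all shGPD1L libraries higher (log2 change 0.34, SE 0.095, adjusted p = 0.159). For PDHB these were 34.7, 32.7 and 35.9 FPKM (shNC) and 25.5, 29.7 and 25.7 FPKM (shGPD1L), with all shGPD1L libraries lower (log2 change -0.34, SE 0.089, adjusted p = 0.141). PFKFB2, the heart-type bifunctional enzyme gene, had 7.73, 6.34 and 8.25 FPKM (shNC) and 5.30, 5.61 and 5.91 FPKM (shGPD1L) (log2 change -0.35, SE 0.11, adjusted p = 0.19). PFKFB2 shares 315 exon bases with YOD1 on the other strand, and the sources used here do not say that strand was kept. HK2 was tightly grouped, at 23.0, 22.7 and 23.1 FPKM (shNC) and 21.1, 20.8 and 20.7 FPKM (shGPD1L) (log2 change -0.13, SE 0.07, adjusted p = 0.394). GAPDH stood at 2004, 1950 and 1897 FPKM (shNC) and 2297, 2118 and 2159 FPKM (shGPD1L), also without overlap (log2 change 0.17, adjusted p = 0.398). Without shGPD1L replicate 3 the log2 changes were -0.31 for PDHB (adjusted p = 0.0776), -0.38 for PFKFB2 (0.101), -0.13 for HK2 (0.256) and 0.18 for GAPDH (0.236), none of them called.

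Of the transporters, SLC2A3 had 14.2, 13.9 and 12.96 FPKM (shNC) and 14.4, 16.5 and 20.4 FPKM (shGPD1L), a log2 change of 0.29 (adjusted p = 0.306), and of 0.16 without shGPD1L replicate 3 (adjusted p = 0.293). The separation was narrow, since the lowest shGPD1L value lay just above the highest shNC value. The remaining genes that were called in OE overlapped here. ALDOA had 564, 522 and 516 FPKM (shNC) and 609, 580 and 523 FPKM (shGPD1L), and MPC1 had 12.8, 12.2 and 14.001 against 12.8, 15.2 and 9.19 FPKM. LDHB had 563, 504 and 566 against 544, 590 and 430 FPKM, and SLC16A1 had 90.5, 90.9 and 95.5 against 85.6, 88.3 and 96.0 FPKM. In each of these the shGPD1L libraries lay on both sides of some shNC library. Without shGPD1L replicate 3 the log2 change went from 0.09 to 0.15 for ALDOA, from -0.04 to -0.09 for SLC16A1, from -0.09 to 0.09 for MPC1 and from -0.07 to 0.06 for LDHB, none of them called. GPI (144, 128 and 131 against 138, 129 and 127 FPKM) and PFKFB3 (9.53, 10.0 and 9.56 against 10.8, 9.95 and 11.1 FPKM) overlapped as well, and without that library their log2 changes were -0.0071 and 0.09.

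Within the knockdown line, replicate 3 differed from replicates 1 and 2 for several of the 38 genes, at a rate near that of all genes. TKT had 245, 255 and 252 FPKM (shNC) and 302, 301 and 468 FPKM in shGPD1L replicates 1, 2 and 3. ALDOC had 16.9, 16.05 and 14.6 FPKM (shNC) and 11.8, 11.3 and 22.2 FPKM (shGPD1L), so that replicate 3 was the highest and the other 2 were the lowest of the 6. SLC2A1 had 587, 616 and 572 FPKM (shNC) and 483, 476 and 599 FPKM (shGPD1L). For these genes replicate 3 lay above its companions, and for a group of abundant glycolytic genes it lay below them. ENO1 stood at 1091 and 1113 FPKM in replicates 1 and 2 and 660 FPKM in replicate 3, LDHA at 358 and 368 against 232 FPKM, PGAM1 at 220 and 233 against 148 FPKM, and TPI1 at 410 and 470 against 303 FPKM, where shNC had 437, 416 and 442 FPKM. Relative to the mean of replicates 1 and 2, replicate 3 differed by -0.74 (ENO1), -0.64 (LDHA), -0.60 (PGAM1) and -0.54 (TPI1) on the log2(FPKM + 1) scale, and by 0.89 (ALDOC) and 0.63 (TKT). Over all 12156 genes the 5th and 95th percentiles of this difference were -0.57 and 0.49. By definition 5% of all genes lie beyond each of these percentiles. Of the 38 genes, 3 lay below the 5th and 2 above the 95th percentile, which is near that share. TPI1 and SLC2A1 (0.32) lay inside the range. Neighbouring genes shared the shift only in part. GAPDH differed by -0.03 and PKM by 0.19, while PGK1 (-0.275), LDHB (-0.398) and ALDOA (-0.184) differed downward within the range of the percentiles.

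**Figure D3:**
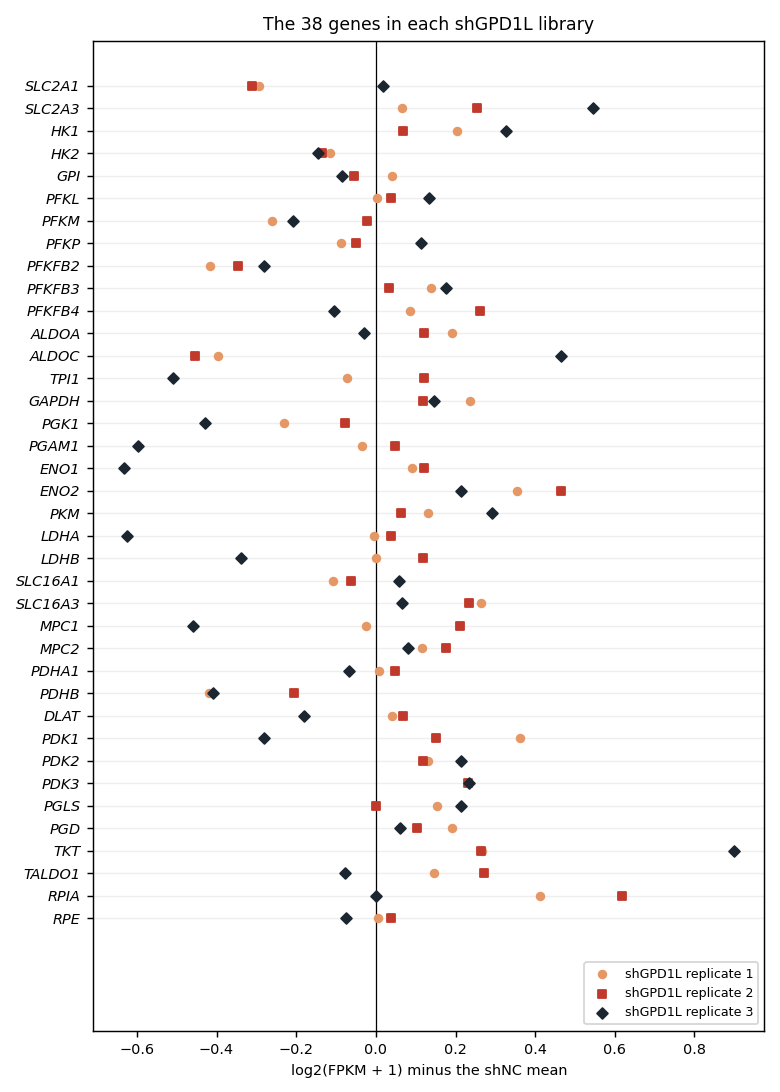
Each shGPD1L library as its log2(FPKM + 1) minus the mean of the 3 shNC libraries, for the 38 genes in order of role. Replicate 3 (dark diamonds) lies at -0.63 for ENO1 and LDHA and at 0.90 for TKT, apart from replicates 1 and 2, while the 3 libraries lie close together for HK2 and PDK3.

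Without shGPD1L replicate 3, when 5.01% of all genes tested were called (1.8% higher and 3.21% lower), 4 of the 38 genes were called, 2 higher and 2 lower. ENO2 (log2 change 0.41, adjusted p = 0.0332) and TKT (0.26, adjusted p = 0.048) were higher, and ALDOC (-0.43, adjusted p = 0.0326) and SLC2A1 (-0.30, adjusted p = 0.0472) were lower. All 4 adjusted p-values lie close to the threshold. Leaving out this library gave 609 calls over all genes, against at most 8 for any other knockdown-table library left out. Dropping a library that differs from its companions narrows the spread the test uses, so these p-values are favoured by the choice. With all 6 libraries the log2 change of ALDOC was -0.13 and that of SLC2A1 was -0.20, with adjusted p-values of 0.821 and 0.416.

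Whether the 2 effects differed was tested as the overexpression change minus the knockdown change over the 12 libraries and 11208 genes, of which 14.1% were called, 9.14% higher and 5% lower. Of the 38 genes 4 were called (10.5%), 2 in each direction. Over all genes 64.6% of the calls were higher, against 45.6% with median-of-ratios scaling and 49.9% with quantile normalization; the 38 then had 1 higher and 3 lower. HK2 and PFKFB2 had a positive difference and ENO2 and TKT a negative one. For HK2 the difference was 0.39 (SE 0.075, adjusted p = 0.00747), from a log2 change of 0.26 in the overexpression and -0.13 in the knockdown. PFKFB2 differed by 0.46 (SE 0.13, adjusted p = 0.035), from 0.11 and -0.35. For ENO2 the difference was -0.58 (SE 0.11, adjusted p = 0.00617), from -0.23 and 0.34, and it was called in all 22 alternatives with adjusted p-values from 0.000788 to 0.0443. TKT differed by -0.78 (SE 0.19, adjusted p = 0.022), from -0.31 and 0.48, and by -0.57 without shGPD1L replicate 3 (adjusted p = 0.00145). Its adjusted p was 0.0589 without Vector replicate 2, 0.0611 without OE replicate 1 and 0.0503 with quantile normalization. The PFKFB2 call was kept in 11 of 22 alternatives, with adjusted p-values up to 0.0905; it was lost with median-of-ratios scaling (0.0641), quantile normalization (0.0848) and the replicate block (0.0809) and without shNC replicate 1 or 3, shGPD1L replicate 1, any Vector library or OE replicate 1 or 2. With the replicate numbers as a block HK2 was at an adjusted p of 0.058.

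PDHB had log2 changes of -0.32 in the overexpression and -0.34 in the knockdown, where it was not called, and a difference of 0.03 (95% interval -0.20 to 0.25) whose sign depended on the scaling. SLC2A1 had the next smallest adjusted p (0.0532, difference 0.38); it passed with equal library totals (0.0371) and with the filter at 5 FPKM (0.0497), and without shGPD1L replicate 3 its difference was 0.48 (adjusted p = 0.00118). Without that library 7 of the 38 were called (18.4%, against 22.9% of all genes, 13.8% higher and 9.15% lower), SLC2A1, SLC2A3, HK2 and PFKFB2 with a positive and ENO2, TKT and RPIA with a negative difference. MPC1 differed by 0.57 with an interval of 0.12 to 1.01 (adjusted p = 0.0864; 0.0239 without shGPD1L replicate 2). Without that library PGK1 passed too (0.40, adjusted p = 0.0284), and PFKFB3 (-0.30, adjusted p = 0.0736) passed without OE replicate 3 (adjusted p = 0.0429), with median-of-ratios scaling (0.0425) and with quantile normalization (0.0357).

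**Figure D4:**
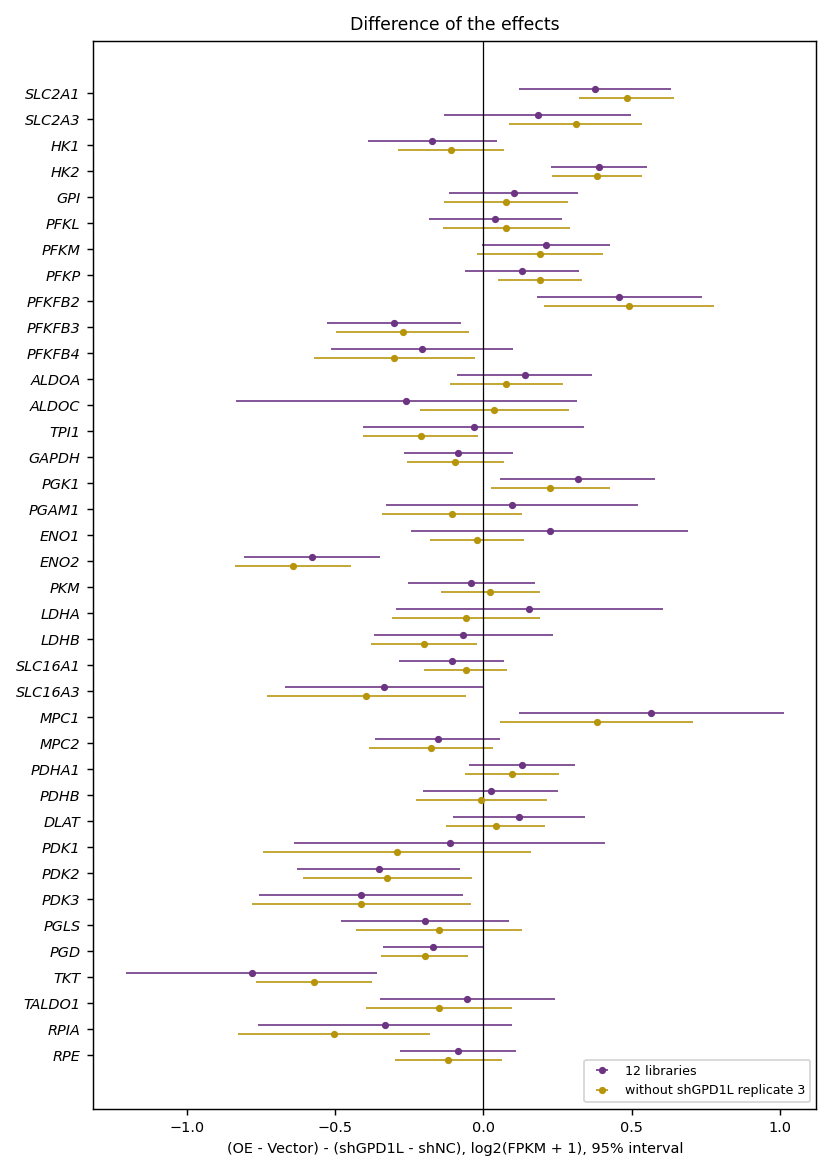
Difference of the overexpression and knockdown effects on log2(FPKM + 1) for each of the 38 genes, with 95% intervals, over 12 libraries (purple) and without shGPD1L replicate 3 (yellow). HK2 and PFKFB2 lie above 0 and ENO2 and TKT below 0 in both fits, and the intervals of ENO1, LDHA and ALDOC narrow without that library.

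Isozyme composition was described as the share of a family's summed FPKM within each library, which does not depend on a scaling factor of the library. HK2 made up 36.5, 36.9 and 38.5% of hexokinase FPKM in shNC and 32.1, 33.9 and 29.8% in shGPD1L, and 46.4, 44.9 and 43.5% in Vector and 48.7, 49.1 and 49.3% in OE. Its share was thus lower in all shGPD1L libraries and higher in all OE libraries than in their controls. The ENO2 share differed the other way, from 2.71 ± 0.089% of enolase FPKM in shNC to 3.84 ± 0.84% in shGPD1L, and from 3.93 ± 0.14% in Vector to 3.16 ± 0.15% in OE (SD, n = 3 each), without overlap in either pair. The highest ENO2 share, 4.80%, was that of shGPD1L replicate 3, where ENO1 was low. ALDOC made up 4.82 ± 0.35% of aldolase FPKM in Vector and 3.14 ± 0.18% in OE. In the knockdown the ALDOC shares were 1.90, 1.91 and 4.08% against 2.88 ± 0.12% in shNC. SLC2A3 had 2.26 ± 0.087 and 3.18 ± 0.25% of the transporter FPKM in shNC and shGPD1L and 1.90 ± 0.19 and 2.37 ± 0.17% in Vector and OE, higher in every library of both altered lines. The LDHA share of lactate dehydrogenase FPKM overlapped in both comparisons, at 39.8 ± 1.3 and 37.7 ± 2.4% in shNC and shGPD1L and 35.3 ± 1.3 and 36.9 ± 1.9% in Vector and OE. No test was made on these shares; with 3 against 3 libraries an exact permutation test cannot give a two-sided p under 0.1.

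**Figure D5:**
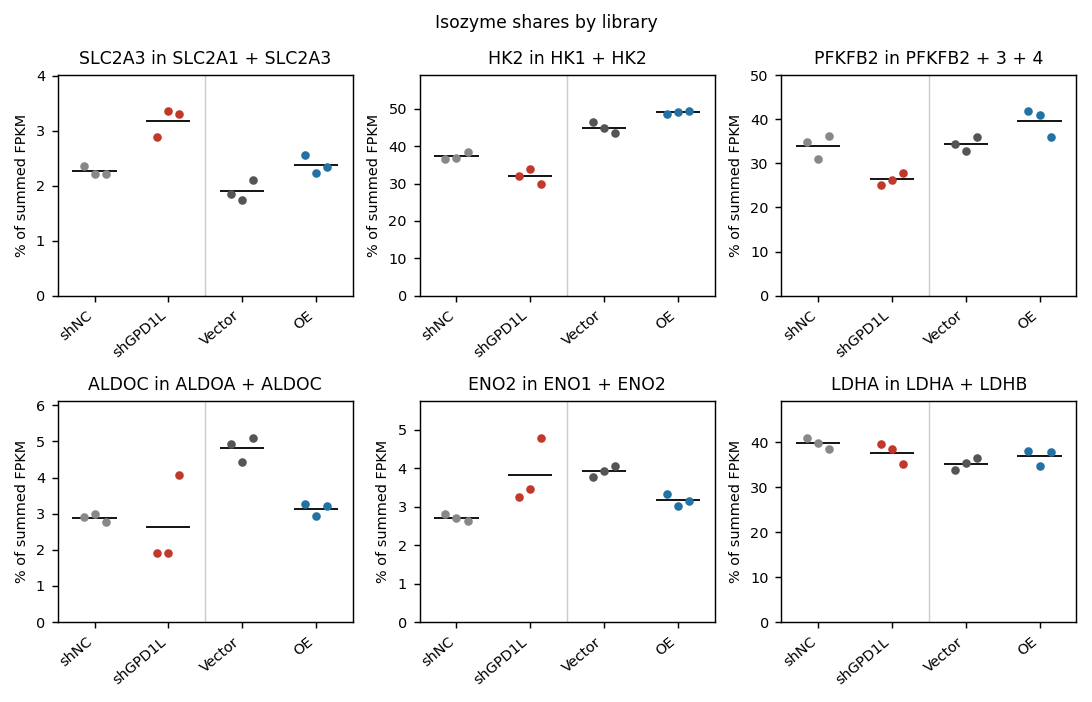
Share of 1 isozyme in the summed FPKM of its family, in percent, for each library (points) with group means (lines) and axes from 0; the grey line divides the 2 tables. The HK2 share is lower in shGPD1L and higher in OE than in the respective controls, the ENO2 share shows the reverse, and the ALDOC share of shGPD1L replicate 3 (4.08%) stands above its companions.

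The stretch upstream of a RefSeq start is shown for 4 genes whose calls held in all 16 alternatives and whose window is not wholly exonic: HK2 and MPC1, which rose in OE, and PDHB and TKT, which fell. Sequences are from RefSeq (GRCh38.p14), 5′ to 3′ on the gene's strand, cut from 250 bases before the start and limited to bases outside annotated exons. Capitals mark ACGTG or GCGTG on either strand, the core letters of the hypoxia response element; CACGTG, an E-box, overlaps that core and is bound by glucose-responsive, MYC-type and clock factors.
HK2 (chr2:74834920-74835169, plus strand): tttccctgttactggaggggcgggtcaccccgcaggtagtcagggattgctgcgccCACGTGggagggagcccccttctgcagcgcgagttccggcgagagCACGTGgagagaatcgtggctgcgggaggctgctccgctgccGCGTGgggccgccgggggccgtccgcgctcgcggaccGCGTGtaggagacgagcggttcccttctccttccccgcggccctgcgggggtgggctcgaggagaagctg
MPC1 (chr6:166383014-166383188, minus strand): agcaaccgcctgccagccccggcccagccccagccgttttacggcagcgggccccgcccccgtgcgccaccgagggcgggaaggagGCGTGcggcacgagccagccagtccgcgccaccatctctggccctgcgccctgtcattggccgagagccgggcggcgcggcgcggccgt
PDHB (chr3:58433858-58434082, minus strand): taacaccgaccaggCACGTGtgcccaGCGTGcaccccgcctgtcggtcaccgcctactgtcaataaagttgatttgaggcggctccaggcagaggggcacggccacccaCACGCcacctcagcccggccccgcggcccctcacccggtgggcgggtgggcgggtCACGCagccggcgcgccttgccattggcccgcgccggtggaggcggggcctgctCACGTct
TKT (chr3:53256053-53256272, minus strand): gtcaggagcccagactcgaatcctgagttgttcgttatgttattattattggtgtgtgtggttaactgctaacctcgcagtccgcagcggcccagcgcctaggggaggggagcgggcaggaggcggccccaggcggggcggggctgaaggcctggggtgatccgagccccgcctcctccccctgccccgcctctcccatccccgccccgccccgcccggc
HK2 has 2 RefSeq starts. The stretch printed lies before the downstream start, inside the annotated gene, and holds CACGTG at 2 places, while the window of the upstream start, which is covered by annotated exons and is not printed, holds it at 0. The PDHB stretch holds it at 1 place, and the MPC1 and TKT stretches hold none. Windows were found for 35 of the 38 genes, not for SLC2A3, SLC16A1 and PFKFB2. CACGTG lay in at least 1 window of 8 of these 35 genes (22.9%), against 7.73% of 27305 genes, and ACGTG or GCGTG in at least 1 window of 26 of 35 (74.3%), against 47.4% of genes. The 35 genes had 65 windows and thus more per gene than the 35116 windows of all genes, which raises a share over any window. Counted per window, CACGTG lay in 8 of 65 (12.3%) against 6.35% of all windows, and ACGTG or GCGTG in 34 of 65 (52.3%) against 43.2%. Windows of 1 gene can overlap. The 27305 genes were not limited to genes listed in these data, whereas the 35 genes all were listed. The shares therefore compare unlike sets, and whether they would differ among expressed genes was not tested. A match of letters is a description and not a binding site, and matches stood upstream of a gene that rose (HK2) and of one that fell (PDHB).

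Other genes of glucose metabolism, from lists of isozymes, branch pathways and regulators, gave 73 genes that could be tested after knockdown and 77 after overexpression. In the knockdown 1 of 73 was called, GPD1L itself (1.37%, against 0.592% of all genes), with 12 at an unadjusted limma p under 0.05. Without shGPD1L replicate 3 the calls were GPD1L, ME1 and DLD, all lower (4.11%, against 5.01% of all genes). In the overexpression 18 of 77 were called (23.4%), 8 higher, GPD1L itself among them, and 10 lower, near the 22.4% of all genes. Of the genes of the pyruvate dehydrogenase complex and its regulators in these lists, PDP1 and DLD were called and PDHX, PDP2, PDPR and PDK4 were not. The phosphatase gene PDP1, whose product activates the complex, rose from 15.6 ± 0.23 to 22.1 ± 2.6 FPKM (log2 change 0.47, adjusted p = 0.00509), and the dihydrolipoamide dehydrogenase gene DLD from 37.4 ± 0.43 to 41.6 ± 1.4 FPKM (0.15, adjusted p = 0.0464). Of the 14 tested genes of pyruvate and lactate handling 2 rose and 3 fell, the falls including ME3 (-0.34) and the pyruvate carboxylase gene PC (-0.29). At dihydroxyacetone phosphate, the ketohexokinase gene KHK, whose product starts fructose breakdown into this triose, fell from 5.25 ± 0.41 to 3.16 ± 0.36 FPKM (log2 change -0.59, adjusted p = 0.00399). GPD2 was not called in either comparison, and GPD1 lay below the filter at 0.286 to 0.945 FPKM. Among 14 tested genes of glucose uptake and glycolysis outside the set, SLC2A10 (-0.25) and the phosphatase gene MINPP1 (-0.23) fell, and these were the only calls. Of 8 further pentose and ribose genes the phosphopentomutase gene PGM2 rose (0.26) and the phosphoribosyl pyrophosphate synthetase gene PRPS2 fell (-0.21). Of 18 genes of the hexosamine, glycogen, polyol and serine branches, the glycogen synthase gene GYS1 fell (-0.18). None of 3 gluconeogenesis genes was called, with 1 at an unadjusted limma p under 0.05.

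Of 12 tested glucose-responsive and hypoxic regulators and reporters 4 rose and 2 fell in the overexpression (50%, against 22.4% of all genes). This short list was chosen with earlier results of these data known, so its share is a description and not evidence of enrichment. HIF1A, EGLN1, TXNIP, MLX, MLXIP and MLXIPL were not called. ANKRD37 (log2 change 0.70, adjusted p = 0.0218) and NDRG1 (0.49, adjusted p = 0.00113), both known as hypoxia-induced, had the largest rises; NDRG1 went from 55.3 ± 1.3 to 78.2 ± 5.2 FPKM and ANKRD37 from 0.963 ± 0.26 to 2.21 ± 0.67 FPKM. The prolyl hydroxylase gene EGLN3, also hypoxia-induced, fell from 3.02 ± 0.046 to 2.36 ± 0.076 FPKM (-0.26, adjusted p = 0.0373), as did EPAS1, which encodes HIF-2α (-0.26, adjusted p = 0.0181). After knockdown NDRG1 (0.31), ANKRD37 (0.20), EGLN3 (-0.25) and EPAS1 (-0.04) had the same signs as in the overexpression, and none was called. Their differences of the effects were not called either. The other called genes of this list, ARRDC4 (-0.15) and ARNT (-0.04), had the opposite sign after knockdown and were not called there. In the difference of the effects 9 of 73 were called higher and 0 lower (12.3%, against 14.1% of all genes), among them GPD1L itself and DLD, which averaged 38.8 ± 3.6 (shNC) and 26.8 ± 1.1 FPKM (shGPD1L; difference 0.66, adjusted p = 0.00218), PDP1 (0.42, adjusted p = 0.0469), the muscle enolase gene ENO3 (0.71, adjusted p = 0.0441), the glycogen phosphorylase gene PYGL (0.38, adjusted p = 0.0351), UGP2 (0.31, adjusted p = 0.0466), PGM2 (0.55, adjusted p = 0.00582) and the arrestin-family gene ARRDC4, a target of glucose-sensing factors (0.58, adjusted p = 0.00715). The remaining call was PDHX (0.38, adjusted p = 0.0243), which was not called in either comparison alone. TXNIP, a glucose-responsive gene of the same list as ARRDC4, did not move with it. Its log2 change was 0.089 in the overexpression and 0.094 in the knockdown, and its difference was -0.005 (adjusted p = 0.985 by limma). Without shGPD1L replicate 3 the calls among the 73 were 13 higher and 5 lower. That is 24.7%, near the 22.9% of all genes called in this setting (13.8% higher and 9.15% lower).

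Several values carry limits from shared sequence. Annotated pseudogenes are many for GAPDH (62), PGAM1 (13), LDHA (6) and RPE (6), none of them listed, so that reads of near-identical copies could have been counted with the parent gene or lost. On the other strand PFKM shares 628 exon bases with SENP1, SLC16A3 482 with CSNK1D, PDHA1 956 with MAP3K15, MPC2 575 with DCAF6 and RPE 837 with KANSL1L.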

How the data were processed

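Libraries of poly(A) RNA (Trizol extraction, oligo(dT) capture, random hexamer priming, per the labels' protocols) were grouped by title. The authors deposited FPKM in 2 tables; per the submitters' processing notes the names involved were HISAT2, StringTie, DESeq2 and GRCh38, while each tool's role, the annotation and any filter were not given in the sources used here. Low values showed no shared step, so read depth could not be recovered, and errors are between libraries. FPKM depends on library composition, which scaling alternatives probed.

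Values were transformed to log2(FPKM + 1). Each table was fitted whole, for genes averaging 1 FPKM or more, with limma 3.58.1 (R 4.3.3, intensity trend), with Benjamini-Hochberg adjustment over all genes and a threshold of 0.05. The difference of effects was fitted over 12 libraries with 4 group means. Fits were tested on simulated data. Positions are from GENCODE 29; figures used matplotlib 3.10.9. The 38 genes and the other lists were chosen with earlier results of these data known. Values per library are given for called genes and the most abundant gene of each role (mean over the 12 libraries). From the other lists, up to 2 called genes in each direction are given, with PDHX, TXNIP and the names of the uncalled regulators in addition. Alternatives changed the pseudocount (0.1 or 0.5), the filter (none, or 5 FPKM), the scaling (equal totals, median of ratios, quantiles) or eBayes (no trend, or robust), added a replicate block, or left out each library in turn.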

Additional observations from a re-analysis of the deposited data

How the results depend on the processing

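In the knockdown, the counts of genes called higher and lower among the 38 were 0 and 0 in every alternative except without shGPD1L replicate 3, where they were 2 and 2. In the overexpression the 5 higher and 7 lower became 11 and 4 with equal library totals, 9 and 5 with quantile normalization and 4 and 4 in eBayes without trend, and both counts ran from 3 to 5 when 1 library was left out. In the difference of the effects the 2 higher and 2 lower became 1 and 3 with median-of-ratios scaling and with quantile normalization; leaving out 1 library gave 1 to 4 higher and 1 to 3 lower. With the replicate block the difference had 0 higher and 2 lower and the overexpression 5 and 5. The numbers gave no sign of pairing. Deviations of same-numbered libraries from their group means correlated at -0.18 to -0.016 in the knockdown and -0.061 to 0.022 in the overexpression. For libraries of other numbers the correlations were -0.069 to 0.25 and -0.033 to 0.071. With 3 libraries a group these values cannot exclude a pairing. Over all genes the block gave 3 calls against 72 in the knockdown, 2021 against 2740 in the overexpression and 483 against 1584 in the difference. Quantile normalization gave 25 calls in the knockdown, 32% of them higher against 19.4%. Leaving out 1 library gave 0 (without shNC replicate 2 or 3) to 609 calls (without shGPD1L replicate 3) in the knockdown, 1550 to 1980 in the overexpression and 790 (without OE replicate 1) to 2572 (without shGPD1L replicate 3) in the difference. For single genes, no called change reversed; in the overexpression 35 values lost and 10 gained a call over 16 alternatives. Signs differed between scalings for 6 uncalled genes in the knockdown (DLAT, GPI, PDHA1, PFKP, RPE, SLC16A1), 5 in the overexpression and 6 in the difference. The median log2 change of all genes moved by less than 0.1 with each scaling. The cause of these dependences was not tested, and read depth, being unknown, sets no stated limit.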
